A study of Mus musculus with 2 samples.

Results

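The complement system was followed here through 34 genes, chosen by symbol from the 32285 genes that both count tables listed, and all 34 were found. By role they were 7 genes of the classical pathway, 5 of the lectin pathway, 4 for C3 and the alternative pathway, 6 of the terminal pathway, 5 regulators in the fluid phase, 2 regulators on the cell membrane and 5 receptors. The data came from single-cell suspensions of mouse liver sequenced in droplets with 10x Genomics 3′ chemistry, in which a barcode marks the droplet and a unique molecular identifier (UMI) marks each captured molecule. There were 2 libraries, 1 of WT mice and 1 of HKO littermates, in which a floxed miR-33 was deleted by Cre recombinase under the albumin promoter, so that the deletion was limited to cells that use this promoter. Whether the WT mice carried the floxed allele was not given in the sources used here. All mice were males that were kept on CD-HFD, a diet rich in fat without added choline, for 6 months after chow until 8 weeks of age, and each library was a pool of 3 livers, with hepatocytes and sorted non-parenchymal cells mixed in equal numbers. With 1 library per genotype no test between genotypes was possible. The 95% intervals given below are exact and cover counting error only, not the spread between mice.

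Complement is a cascade of plasma proteins. The classical pathway starts when C1q binds an antibody or a damaged surface and the proteases C1r and C1s cut C4 and C2, the lectin pathway starts when mannose-binding lectins or ficolins bind sugars and the MASP proteases make the same cuts, and the alternative pathway amplifies both through factor B, factor D and properdin. All routes meet at the cleavage of C3 and then of C5, after which C6 to C9 assemble a pore in the target membrane. The liver is known as the main source of the plasma components, macrophages as the main source of C1q, and receptors for the cleavage products sit mostly on myeloid and B cells.

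The gene that was deleted encodes the microRNA miR-33-5p. RefSeq places its mature form at chr15:82198127-82198147 on the plus strand of GRCm38.p6, and neither table held a row for the microRNA, so the deletion itself could not be read from these counts. It is shown with its seed, bases 2 to 8, in capitals, because a match to the seed in a 3′ UTR is the usual way in which a transcript is found to be a candidate target.
miR-33-5p: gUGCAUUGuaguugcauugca
In the longest annotated 3′ UTR of each gene (GENCODE M21, GRCm38), 6 of the 34 members held at least 1 match, counting the letters CAATGCA or AATGCAA on the transcript strand. This compared with 14.9% of 20974 genes. The members' 3′ UTRs were short, with a median of 368 bases against 955 for all genes, and that of C3 had 43 bases. The matches of the 4 members that were compared in hepatocytes below are shown with the matched letters in capitals. They lie at chr4:104817415-104817421 on the minus strand (C8a), chr16:23452319-23452325 and chr16:23451822-23451828 on the minus strand (Masp1), chr19:30239634-30239640 on the plus strand (Mbl2) and chr1:130635976-130635982 on the minus strand (C4bp).
C8a: tgctctgagtaAATGCAAacccacaaagg
Masp1, nearer to the stop codon: gaagatcagtgAATGCAAgcaacctttcc
Masp1, farther from the stop codon: ttccccataaaAATGCAAacaaaatacaa
Mbl2: cattggttaccCAATGCAttctcttgtga
C4bp: ttgcttttctgAATGCAAtgtgtacattt
The other members with a match were C3ar1 and Cr2.

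The WT library held 130451427 UMIs over 30078 barcodes and the HKO library 52563185 over 20000. In each library many barcodes (22983 in WT, 8301 in HKO) lay near 1 low depth (2570 UMIs in WT, 813 in HKO), carried Alb at 34802 and 30131 CPM and fell in no class of another cell type. They are called free RNA droplets below. Barcodes were clustered on genes other than the complement genes, so that the classes did not use the members. The hepatocyte-like class had 1993 barcodes in WT and 1603 in HKO with at least 5000 UMIs each, with a median depth of 19406 and 10711 UMIs. All 9 hepatocyte markers were detected in it, and none exceeded free RNA 2-fold, so depth and not marker level set this class apart. The median mitochondrial share was 11.4% in WT and 13.5% in HKO. The list of 12 macrophage markers summed to 88.7 CPM (counts scaled to 1000000 per class and library) in the hepatocyte-like class of WT and 92.4 CPM in HKO, below the 129 and 127 CPM of free RNA. In the macrophage-like class the same list summed to 9355 CPM in WT (41 barcodes) and 10716 CPM in HKO (179 barcodes). Jchain was at 0 in the B and plasma-like class, and no cluster was led by the markers of mesothelial cells. Which barcodes the libraries share was not counted, since the barcode list of WT was not used here.

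In hepatocyte-like barcodes, 22 of the 34 members reached a mean of 10 CPM over both libraries. This was a limit on level and not on excess over free RNA, which held the same members at similar CPM: the ratio of hepatocyte-like to free RNA levels ran from 0.695 (Mbl2) to 1.38 (Masp1) in WT, and in HKO from 0.542 (C1ra) to a value for Masp1 below that of WT. Since a UMI counts a molecule once at its 3′ end, levels were compared between genes without a length correction. The gene nearest to the limit from above was C2 with a mean of 44.0 CPM, and the nearest from below was C1qb with 2.90 CPM, so the choice of the limit moved no member over a wide range. C3, on which all pathways converge, stood highest with 2791 CPM in WT (interval 2776 to 2806) and 1878 CPM in HKO (1859 to 1897). It was followed by Vtn, the inhibitor of pore assembly vitronectin, at 1539 CPM in WT and 988 in HKO. Clu, which encodes clusterin, another inhibitor of the pore, came next with 1246 and 1000.5 CPM. C3 was the highest in both libraries, and Vtn stood above Clu in WT but slightly below it in HKO. C8g, the lipocalin chain of C8, led the terminal pathway at 769 CPM in WT and 625 in HKO. Its partner chains were lower: C8a stood at 279.7 and 271 CPM and C8b at 68.6 and 59.6 CPM.

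The other 12 members were near absent from hepatocyte-like barcodes, and 11 of them, all but Cfd, stood above free RNA in another class. A member was called above free RNA in a class when it had at least 10 UMIs there and the lower bound of its ratio to the free RNA droplets of the same library, at equal Alb UMIs, exceeded 2. By this rule 15 members were above free RNA in both libraries in at least 1 class of a single cell type, and 19 in none. Over all genes with at least 10 UMIs in each library, the share that passed ran from 1.45% in erythroid-like to 81.0% in macrophage-like barcodes. The 19 members were 18 of those compared in hepatocyte-like barcodes, and Cfd. Of these 19, C1ra, C1s1, C2 and Serping1 were above free RNA in both libraries in a class with mixed markers of endothelial, macrophage and stellate cells (22 WT and 83 HKO barcodes), where their ratios to free RNA were 6.18, 3.90, 10.7 and 5.52 in WT and 18.2, 10.9, 25.3 and 17.0 in HKO. The share of all genes that passed in this mixed class was not counted. In the heatmap of levels by class, members detected in hepatocyte-like barcodes and free RNA form bands across all classes, whereas C1q, Fcna, Cfp and the receptors are high in few columns.

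**Figure D1:**
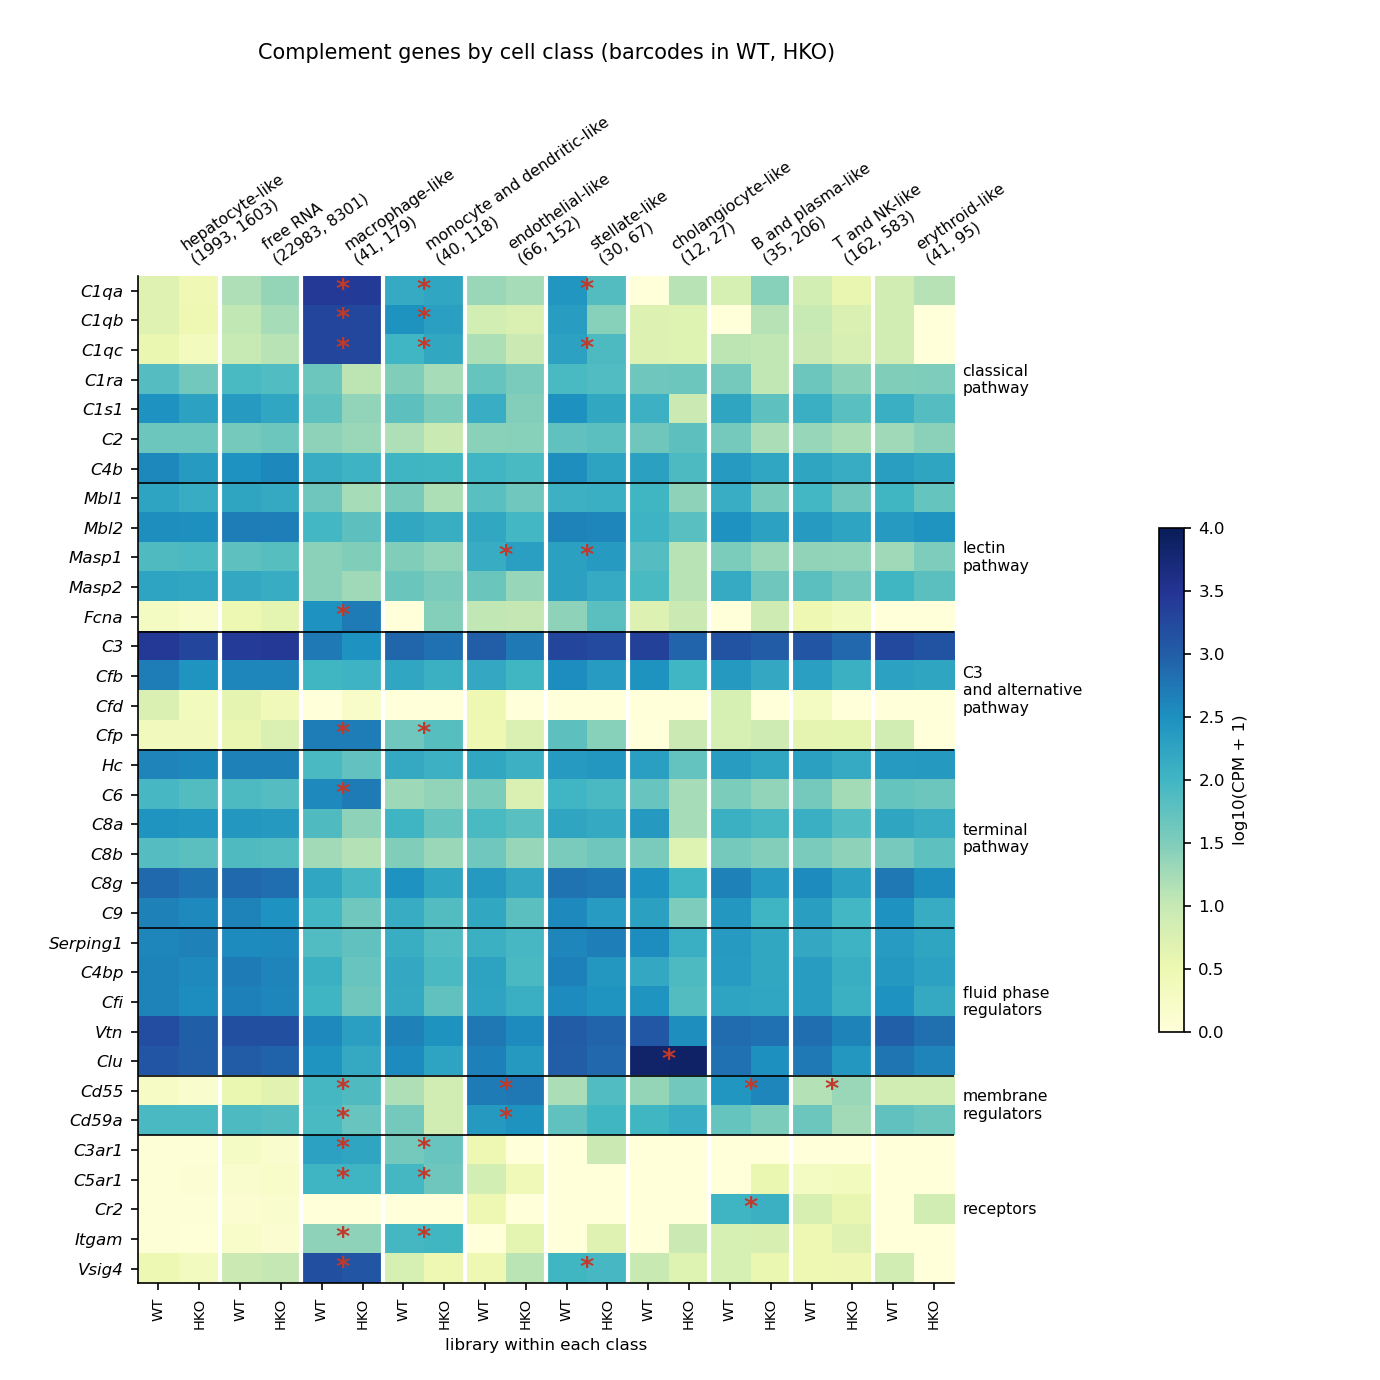
Level of the 34 members, as log10(CPM + 1) by color, in 10 classes (columns, WT and HKO side by side, with the number of barcodes in parentheses), ordered by role. A red star marks a member called above free RNA in that class in both libraries. The stars gather in the macrophage-like columns, with 12 members, and the 3 C1q chains are dark there while near 0 CPM in hepatocyte-like barcodes.

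Macrophage-like barcodes carried the start of the classical pathway. In this class 12 members were above free RNA in both libraries, of 32 that had at least 10 UMIs in each; over all genes with that many UMIs the share was 81.0%, so a pass was common in this class. The 3 chains of C1q had the highest levels. C1qa, the A chain, stood at 2737 CPM in WT (2609 to 2869) and 2609 CPM in HKO (2530.0 to 2691). C1qb stood at 1935 and 1801 CPM, and C1qc at 1865 and 1806 CPM. A C1qa UMI was found in 97.6% of macrophage-like barcodes of WT and 91.1% of HKO, against 3.70% and 0.686% of T and NK-like barcodes, whose median depths were 6231 and 2491 UMIs against 14495 and 8121. In hepatocyte-like barcodes C1qa stood at 3.84 CPM in WT and 1.83 CPM in HKO, below the 13.7 and 21.7 CPM of free RNA. The 3 genes lie side by side on chromosome 4 (GRCm38), with 3616 bases between C1qb and C1qc and 2851 between C1qc and C1qa, all on the minus strand.

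Other members of this class came from further steps of the cascade. Vsig4, the complement receptor of the immunoglobulin family by which Kupffer cells take up particles coated with C3 fragments, reached 1438 CPM in WT and 1211 CPM in HKO. Cfp, which encodes properdin, the stabilizer of the alternative convertase, stood at 486 and 494 CPM. C6, which binds C5b as the pore starts to form, was at 375 CPM in WT and 508 CPM in HKO, above the 88.0 and 69.0 CPM of hepatocyte-like barcodes. C6 was thus the 1 terminal component above free RNA outside hepatocytes; the other 5 were not. Fcna, a ficolin that recognizes sugars for the lectin pathway, stood at 304 CPM in WT and 519.7 CPM in HKO. The receptors of the cleavage products were lower, with C3ar1 (the receptor of C3a) at 188 and 170.5 CPM and C5ar1 (the receptor of C5a) at 106 and 105 CPM. Itgam, the alpha chain of complement receptor 3, was at 23.7 and 23.6 CPM. C2, C4b, Cfb and Masp1 passed the rule in the macrophage-like class of HKO but not of WT. Their ratios to free RNA were 4.45, 2.76, 2.59 and 4.52 in HKO and 2.94, 2.04, 1.13 and 2.12 in WT, in that order.

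**Figure D2:**
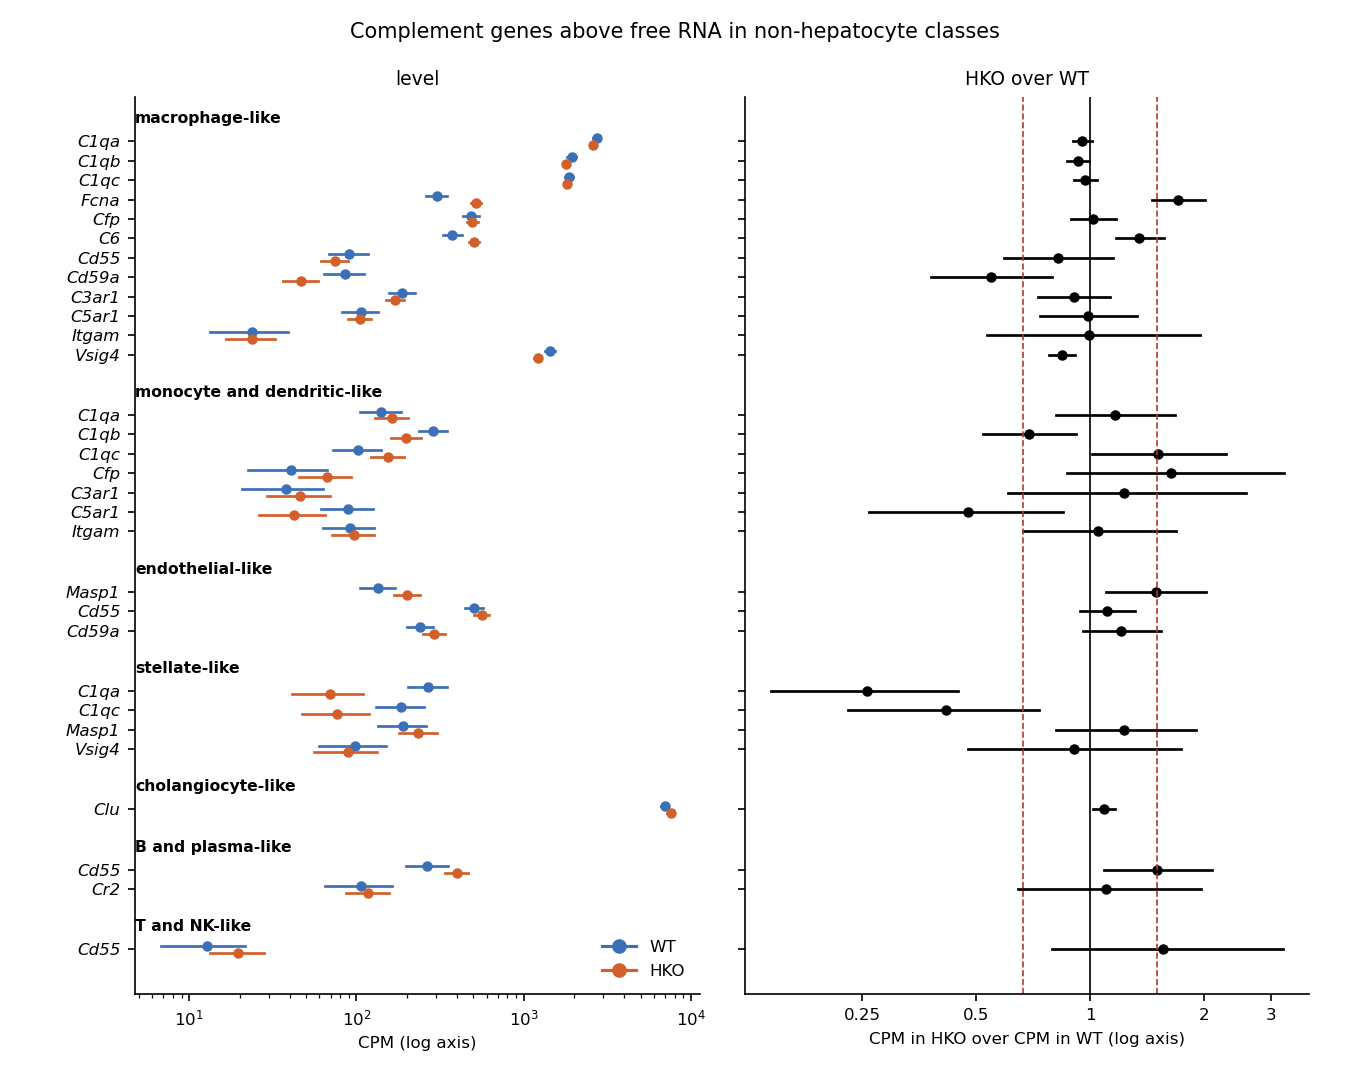
Members above free RNA in both libraries, by class. Left, CPM in WT (blue) and HKO (orange) on a log axis; right, CPM in HKO over CPM in WT on a log axis; points are values over all barcodes of a class, bars are exact 95% intervals for counting error, and dashed lines mark a 1.5-fold difference. In macrophage-like barcodes the points of Fcna (1.71) and Cd59a (0.546) lie beyond the dashed lines, and the 3 C1q chains lie within 0.931 to 0.968.

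Monocyte and dendritic-like barcodes (40 in WT, 118 in HKO) were above free RNA for 7 members in both libraries, of 24 with at least 10 UMIs in each, against 68.8% of all genes. Itgam was higher here than in the macrophage-like class, at 91.5 CPM in WT and 96.4 in HKO. C5ar1 stood at 88.8 and 42.2 CPM, C3ar1 at 37.7 and 46.2 CPM and Cfp at 40.4 and 66.3 CPM. The C1q chains were lower than in macrophage-like barcodes and came from few barcodes: C1qa stood at 140.0 and 163 CPM, and 1 barcode gave 32.7% of its UMIs in WT and 54.3% in HKO. The neutrophil-like class had 5 barcodes in WT and 35 in HKO and was not compared. In HKO it was above free RNA for C5ar1 (265 CPM, 169.9 to 395) and Itgam (166 CPM, 92.8 to 273).

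Both membrane regulators had their highest level among the single-type classes in endothelial-like barcodes (66 in WT, 152 in HKO). Here 3 members were above free RNA in both libraries, of 23 with at least 10 UMIs in each, against 65.8% of all genes. Cd55, the decay-accelerating factor that takes the convertases apart, was at 505 CPM in WT (445 to 571) and 559.8 CPM in HKO (503 to 622). This was its highest level in any class, with 266 and 399 CPM in B and plasma-like, 90.2 and 74.1 CPM in macrophage-like, 12.7 and 19.7 CPM in T and NK-like and 0.735 and 0.396 CPM in hepatocyte-like barcodes. Cd59a, which blocks the last step of pore assembly, was at 241 and 292 CPM in endothelial-like and at 80.3 and 80.6 CPM in hepatocyte-like barcodes. At the level of RNA, hepatocyte-like barcodes thus had Cd59a with little Cd55, and endothelial-like barcodes had both. Masp1, a protease of the lectin pathway, was the other member above free RNA, at 135 CPM in WT and 201 in HKO. It was also above free RNA in stellate-like barcodes, at 190.2 and 235 CPM, and was present in hepatocyte-like barcodes at 76.6 and 81.9 CPM. Its highest level was in the mixed endothelial, macrophage and stellate class, at 658 and 692 CPM.

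In the remaining classes few members passed. In B and plasma-like barcodes 2 of 18 members with at least 10 UMIs in each library were above free RNA, against 39.4% of all genes. These were Cd55 and Cr2, the receptor of C3d on B cells, which stood at 106 CPM in WT (65.0 to 164) and 117 CPM in HKO (86.6 to 156) and had 0 UMIs in macrophage-like barcodes of both libraries, which allows up to 4.75 and 1.92 CPM at 3 counts. In T and NK-like barcodes 1 of 23 (Cd55) passed against 52.0% of all genes. In cholangiocyte-like barcodes 1 of 14 passed against 43.6% of all genes. It was Clu, at 6976 CPM in WT (12 barcodes) and 7577 CPM in HKO (27 barcodes), the highest value of any member in any class, although 1 barcode gave 31.4% of its UMIs in WT. In erythroid-like barcodes 0 of 15 passed, against 1.45% of all genes. In stellate-like barcodes 4 of 24 passed (C1qa, C1qc, Masp1 and Vsig4), against 7.64% of all genes. Of these, C1qa, C1qc and Vsig4 are also the leading members of the macrophage-like class, and 1 barcode gave 85.5% of the C1qa UMIs in WT and 44.4% in HKO. The part of droplets that held a macrophage as well was not tested.

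Cfd was the 1 member below the limit in hepatocyte-like barcodes that stood above free RNA in no class. It encodes factor D, the protease that cuts factor B and is known as a fat cell product. It had 218 UMIs in hepatocyte-like barcodes of WT and 23 in HKO, or 4.45 and 1.14 CPM (ratio 0.256, 0.159 to 0.394), below the limit for comparison. A Cfd UMI was found in 5.07% of these barcodes in WT and 0.936% in HKO, and in 1.56% and 0.561% once every barcode was thinned to 5000 UMIs. In free RNA droplets Cfd was at 2.94 CPM in WT and 1.41 CPM in HKO.

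The promoters of the members, from 250 bases before to 50 after the start in RefSeq (GRCm38.p6), were searched on both strands for 5 short motifs. The promoters of C3, the member with the highest level in hepatocyte-like barcodes, and Fcna, a member with few UMIs there, are printed as examples. A promoter was listed for 26 members. The C/EBP motif TTGCNNAA was found for 4 of them (C1ra, C1s1, C3 and C9), against 10.8% of 32851 promoters, and the HNF1 motif GTTAAT for 9 (C1ra, C4bp, C8a, C8b, Cd55, Cfp, Cr2, Hc and Vtn), against 2332 of all promoters. The PU.1 motif GAGGAAG was found for 3 (C1qc, Fcna and Itgam), against 13.6%, a share no higher among the members. The interferon response motif ISRE was found for 2 (Cd59a and Vtn), against 3.44%, and the NF-kB motif for 0, against 1.20%. The promoters of C3, at chr17:57228087-57228386, and Fcna, at chr2:25627925-25628224, both read along the minus strand, are printed with the C/EBP match of C3 and the PU.1 matches of Fcna in capitals; the last 2 matches of Fcna share 1 base.
C3: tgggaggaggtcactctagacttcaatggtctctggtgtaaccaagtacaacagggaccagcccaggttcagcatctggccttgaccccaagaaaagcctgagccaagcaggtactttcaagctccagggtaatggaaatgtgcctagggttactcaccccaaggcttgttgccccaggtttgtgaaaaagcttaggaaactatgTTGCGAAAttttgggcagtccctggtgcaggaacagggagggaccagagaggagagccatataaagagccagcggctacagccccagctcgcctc
Fcna: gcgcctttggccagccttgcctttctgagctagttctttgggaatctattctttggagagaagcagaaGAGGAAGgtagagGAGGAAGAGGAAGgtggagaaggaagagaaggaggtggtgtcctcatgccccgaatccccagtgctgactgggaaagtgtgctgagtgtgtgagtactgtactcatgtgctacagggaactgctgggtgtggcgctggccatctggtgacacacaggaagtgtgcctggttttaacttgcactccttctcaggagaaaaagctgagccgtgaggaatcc
A match of letters in this window is a description and not a binding site.

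The difference between libraries was then compared over the 7076 genes with a mean of at least 10 CPM in hepatocyte-like barcodes, 22 of them members. Of the 22 members, 18 were lower and 4 higher in HKO, and the median log2 ratio was -0.28, against -0.00 over all 7076 genes. A gene was called at a 1.5-fold difference. By this rule 5 members were lower (C1ra, C1s1, C4b, Cfb and Vtn) and 0 higher, against 4.42% of all genes lower and 2.42% higher. Among genes with a mean of at least 100 CPM, 4 of 16 members were called lower, against 5.72% of such genes, with a median of -0.31 against -0.00. As a scale for secreted hepatocyte products, Alb itself was lower in HKO, at 27829 CPM against 36635 in WT (ratio 0.760). Scaling by Alb moves every gene by the same amount: the median of all 7076 genes was then 0.39 and that of the members 0.12, and 0 members were called lower, against 0.989% of all genes.

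In the classical pathway 3 of the 4 compared members were called lower. C1ra, the protease C1r, went from 68.3 CPM in WT to 39.5 CPM in HKO (ratio 0.578, 0.534 to 0.624). C1s1, the protease C1s that it activates, stood at 297 and 186 CPM (0.627, 0.605 to 0.650). C4b, the source of the C4b fragment of the convertase, stood at 383 and 228 CPM (0.597, 0.578 to 0.616). C2, whose cleavage completes that convertase, was at 44.0 CPM in WT and 44.1 CPM in HKO (1.00, 0.925 to 1.08). C2 and Cfb are neighbours on chromosome 17 with 85 bases between them on the same strand, and their ratios were 1.00 and 0.554. C1ra and C1s1, 6901 bases apart on opposite strands of chromosome 6, had similar ratios. C1ra, C1s1 and C4b have near-identical copies in the mouse genome (C1rb, C1s2 and C4a), between which the counting step could have split reads. C1rb and C1s2 had at most 2 UMIs in hepatocyte-like barcodes of either library, and C4a was at 24.0 CPM in WT and 20.1 CPM in HKO.

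For C3 and the alternative pathway, both compared members were lower. Cfb, factor B, the catalytic part of the alternative convertase, had the lowest ratio of the 22, at 495 CPM in WT and 274 in HKO (0.554, 0.538 to 0.570). C3 lay just outside the 1.5-fold limit, with a ratio of 0.673 (0.665 to 0.680), and Vtn just inside it, with 0.642. In the lectin pathway none of the 4 compared members was called. Mbl1 and Mbl2, the mannose-binding lectins A and C, had ratios of 0.799 (172 against 137 CPM) and 0.951 (338 against 322 CPM). The proteases Masp1 and Masp2 had ratios of 1.07 (1.01 to 1.13) and 0.936 (0.899 to 0.974).

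The terminal pathway was lower for 6 of 6 members, none of them called, with a median log2 ratio of -0.23, where 3575 of all 7076 genes were lower. C6 had a ratio of 0.784, C8g of 0.813, C9 (the subunit that forms the ring of the pore) of 0.833 at 448 CPM in WT and 373 in HKO, and C8b of 0.869. Hc, the gene of C5, was at 408 and 388 CPM (0.950, 0.925 to 0.975), and C8a at a ratio of 0.967. Of the 5 regulators in the fluid phase, Vtn was called lower. Cfi, factor I, which cuts C3b, stood at 427 and 341 CPM (0.799), Clu at a ratio of 0.803 and C4bp, the binding protein of C4b, at 429.9 and 368 CPM (0.856). Serping1, the C1 inhibitor, was the member with the highest ratio, at 398 CPM in WT and 439 CPM in HKO (1.10, 1.08 to 1.13). C1r and C1s on the one hand and their inhibitor on the other thus lay on opposite sides of 1. Cd59a, the membrane regulator, had a ratio of 1.00 (0.947 to 1.06).

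The libraries differed in depth, so the share of hepatocyte-like barcodes with a UMI was also taken with every barcode thinned to 5000 UMIs. A C1ra UMI was then found in 29.3% of barcodes in WT and 17.2% in HKO, and a Cfb UMI in 82.4% and 65.5%. For C3 these shares were 99.5% and 97.2%, and for Serping1 82.3% and 79.0%.

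The free RNA droplets gave another reading of the same livers. There, 8 of the 22 members were higher and 14 lower in HKO (median log2 ratio -0.12, against -0.23 over all genes compared), and 0 members were called either way, against 15.4% of genes lower and 4.79% higher. C4b turned from 0.597 in hepatocyte-like barcodes to 1.27 (1.22 to 1.32) in free RNA, at 302 CPM in WT and 383 in HKO. C3 was at 1.05, Cfb at 1.02 and Vtn at 1.00 in free RNA, whereas C1s1 stayed lower at 0.689 and C1ra at 0.866. Summed over all deposited barcodes of a library, 21 of the 22 members were lower in HKO, where 4177 of all 7076 genes were lower. The median log2 ratio was -0.42 for the members and -0.09 for all genes. Of the members 4 (C1ra, C1s1, C9 and Cfb) were called lower, against 9.61% of all genes. This sum mixes the classes, whose shares differed between libraries: C1qa stood in it at 26.9 CPM in WT and 112 CPM in HKO.

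**Figure D3:**
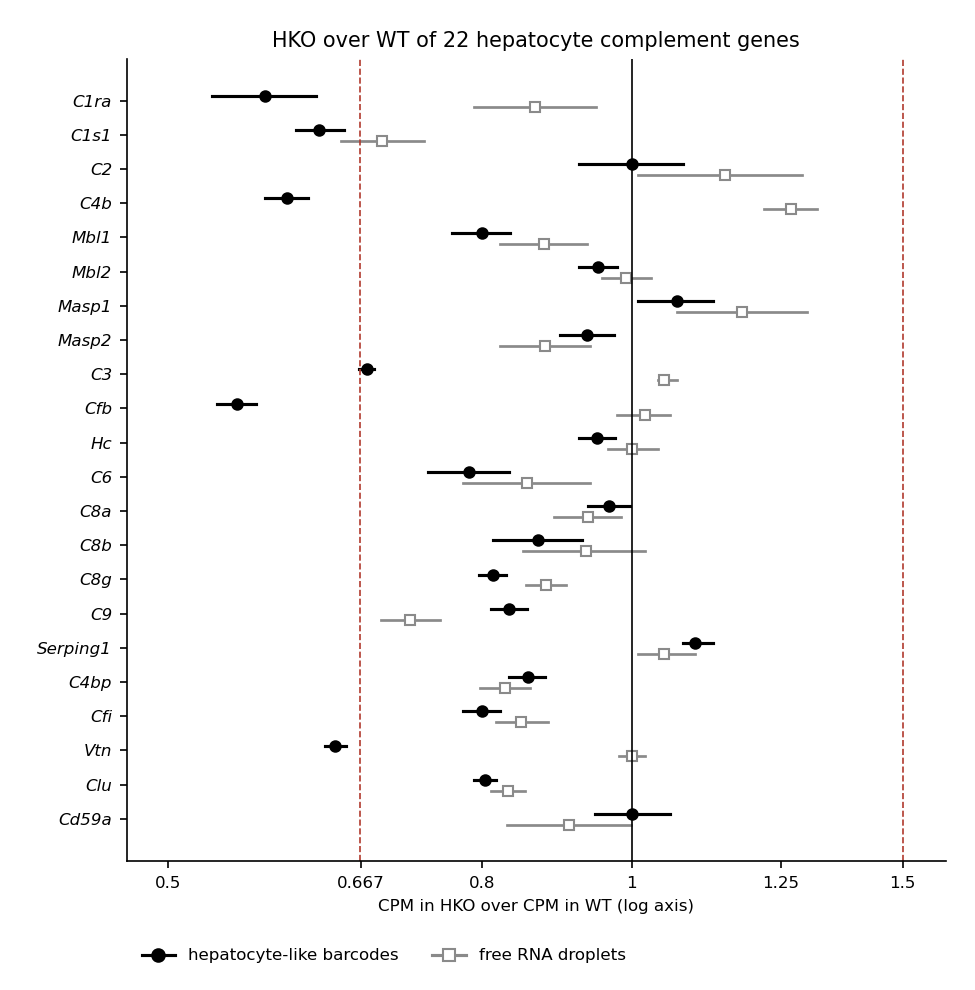
CPM in HKO over CPM in WT (log axis) for the 22 members compared, by role, in hepatocyte-like barcodes (black circles) and in free RNA droplets (gray squares), with exact 95% intervals for counting error; dashed lines mark a 1.5-fold difference. C1ra, C1s1, C4b, Cfb and Vtn lie left of the dashed line in hepatocyte-like barcodes, and none of these does in free RNA, where C4b lies at 1.27.

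The levels of these members also differed among hepatocyte-like clusters, and the libraries were not spread over the clusters alike. Among clusters with at least 50 hepatocyte-like barcodes, 3 had over 90% of these from WT and none had over 90% from HKO. The 3 held 447 WT barcodes (22.4% of the class) and 3 of HKO. The largest of them, cluster 9, had 272 WT barcodes with a median of 33260.5 UMIs, and C4b and Cfd were among its leading genes although neither was used for clustering. C3 stood there at 4076 CPM, C4b at 649, Cfb at 740.2 and Vtn at 2433 CPM. In cluster 5, with 67 WT and 141 HKO barcodes and a mitochondrial share of 0.822% and 0.323%, C3 was at 1148 and 547 CPM and Vtn at 875 and 334 CPM. Without the 3 clusters held by WT, 3 members were called lower (C1ra at 0.663, C1s1 at 0.641 and Cfb at 0.639), against 3.86% of genes, and the median log2 ratio was -0.18. C4b was then at 0.733, Vtn at 0.762 and C3 at 0.768.

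Within the 2 clusters that held at least 100 barcodes of each library, 0 members were called, against 5.46% of genes in cluster 10 (670 WT and 478 HKO barcodes, with Neat1 among the leading genes and a median mitochondrial share of 24.4% and 29.5%) and 3.42% in cluster 12 (631 and 891 barcodes). Cfb was at 0.689 in cluster 10 and 0.757 in cluster 12, C1s1 at 0.708 and 0.737, and C1ra at 0.822 and 0.691. C3 was at 0.833 and 0.901, C4b at 0.845 and 0.893 and Vtn at 0.811 and 0.908. All 6 were thus still lower in HKO in both clusters, by less than over all hepatocyte-like barcodes. In clusters 10 and 12 Serping1 was at 1.10 and 1.16 and C2 at 1.29 and 1.22. Of the terminal pathway, Hc was at 1.14 and 1.08 and C8a at 1.02 and 1.04, so both lay above 1 within these 2 clusters and below 1 over the class. The share of the difference over the class that came from how barcodes fell into clusters cannot be told apart from genotype, since each cluster's share rests on 1 library per genotype.

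**Figure D4:**
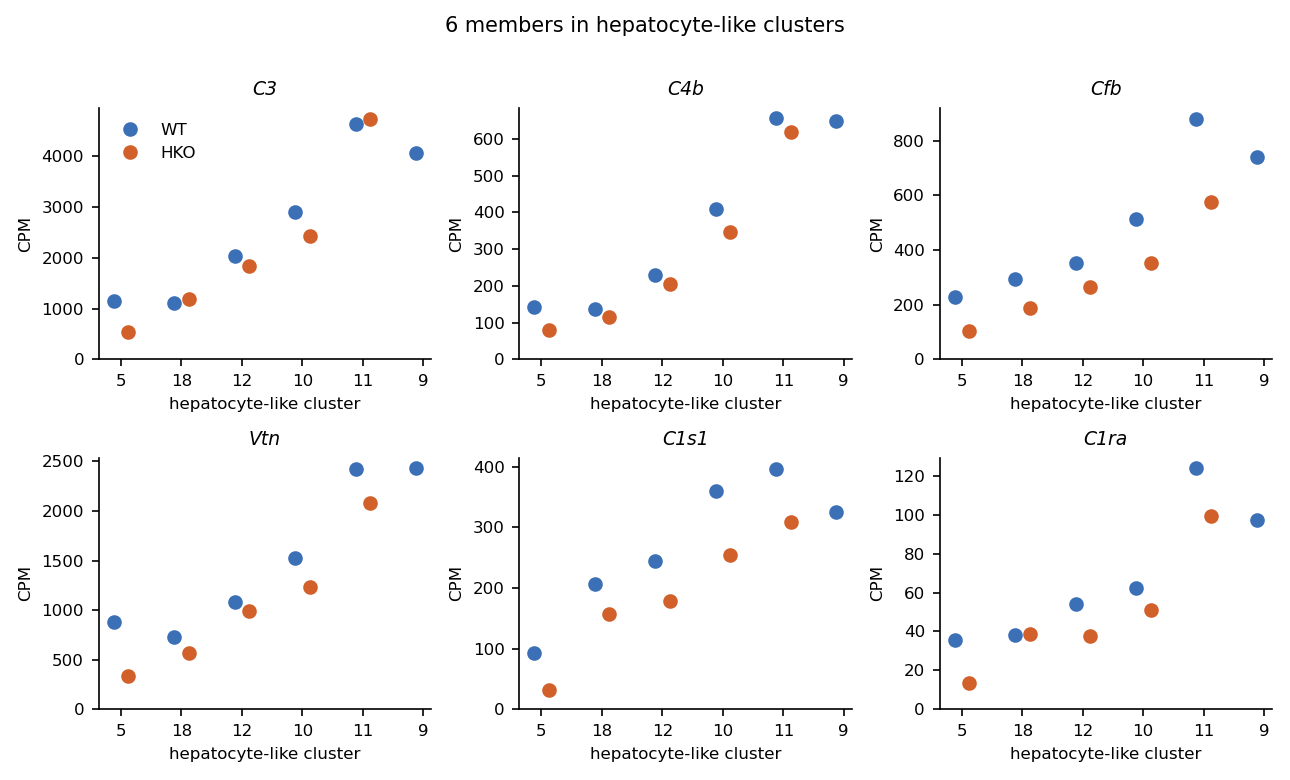
CPM of 6 members (vertical axes, each from 0) in the hepatocyte-like clusters 5, 18, 12, 10, 11 and 9 (horizontal axes) for WT (blue) and HKO (orange); a point is the value over all barcodes of a cluster, and the clusters 0, 2, 3 and 7 are not drawn. C3 runs from 547 CPM in cluster 5 of HKO to 4747 CPM in cluster 11 of HKO, and cluster 9 has a WT point only.

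Next, the position along the lobule was compared by splitting the hepatocyte-like barcodes of each library into 3 equal groups (periportal, middle and pericentral) by a score of 8 pericentral and 8 periportal genes. Cyp2e1, a pericentral enzyme used in the split, went from 245 to 3686 CPM in WT and from 88.0 to 5051 CPM in HKO, so the span between the ends was wider in HKO. The groups are ranges of a score, and 388 barcodes of WT and 347 of HKO lay close to a cut. A member was described as higher at 1 end when it exceeded the other end by at least 25% in both libraries. By this rule 6 of 22 members were higher in the periportal group, against 5.02% of genes, and 0 in the pericentral group, against 14.4%. The 6 were C8a, C8b, C9 and Hc of the terminal pathway and the regulators Cfi and Serping1. C8a showed the steepest gradient, with 346 CPM periportally, 281 in the middle and 211 pericentrally in WT, and 355, 299 and 149.9 CPM in HKO. Hc went from 468 to 329 CPM in WT and from 458 to 279 CPM in HKO, and Cfi from 488 to 333 and from 424 to 232 CPM. Mbl2 leaned the other way, with a pericentral to periportal ratio of 1.64 in WT and 1.21 in HKO, the second below the limit. C3 had ratios of 0.840 and 0.668.

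The difference between libraries was present in each of the 3 groups for the members called lower over the class. Cfb in HKO over WT was 0.648 in the periportal, 0.533 in the middle and 0.492 in the pericentral group. For C4b these ratios were 0.707, 0.553 and 0.567, for Vtn 0.785, 0.571 and 0.566, and for C1s1 0.681, 0.623 and 0.573. For C1ra the ratios were 0.658, 0.486 and 0.608. The periportal ratio was the nearest to 1 for all 5.

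**Figure D5:**
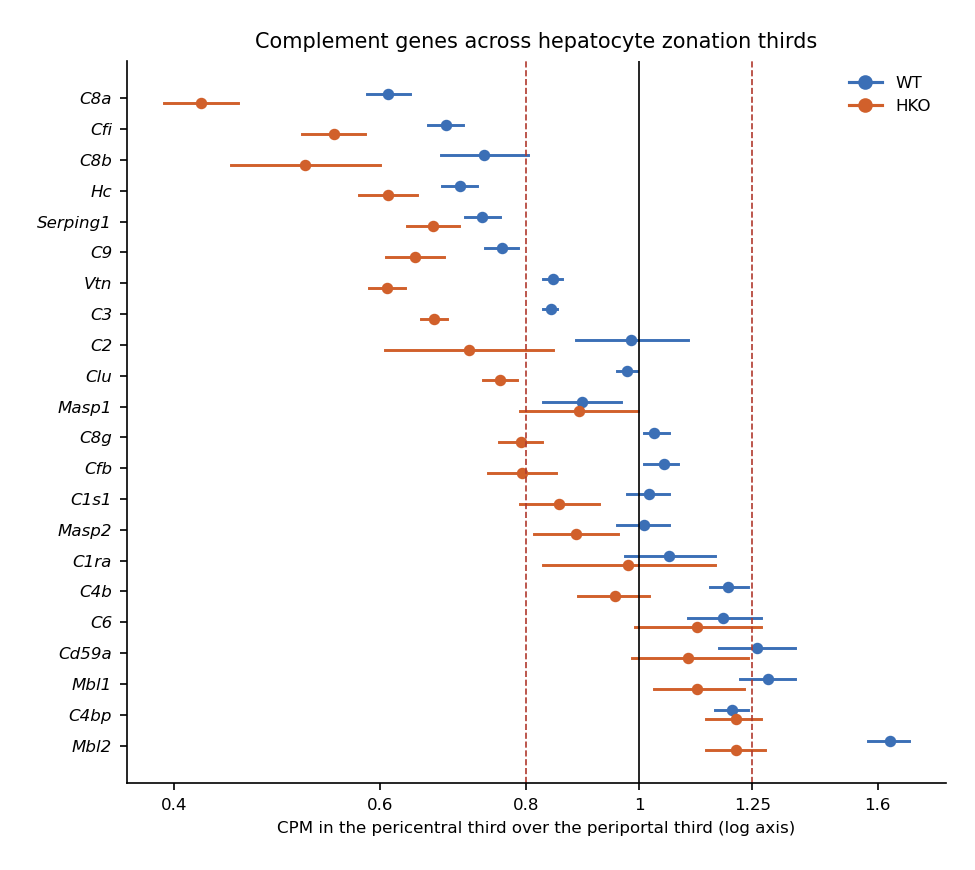
CPM in the pericentral group over the periportal group of hepatocyte-like barcodes (log axis) for 22 members in WT (blue) and HKO (orange), with exact 95% intervals for counting error; dashed lines mark where 1 group exceeds the other by 25%. The 6 members at the top, from C8a to C9, lie left of the dashed line in both libraries, and no member lies right of it in both.

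Outside hepatocytes the libraries were compared for members above free RNA. The ratios were taken over class totals that include free RNA, and were not corrected for it. Alb, a measure of that RNA, stood at 7501 CPM in WT macrophage-like barcodes and 3117 CPM in those of HKO. In macrophage-like barcodes 1 of 12 members was called higher and 1 lower in HKO, against 17.0% and 14.5% of 10924 genes. The median log2 ratio of the 12 members was -0.06, against 0.06 over all genes. Fcna was the one called higher, with 192 UMIs in WT and 814 in HKO (1.71, 1.46 to 2.01). Cd59a was called lower, with 54 and 73 UMIs (85.4 and 46.6 CPM; 0.546, 0.379 to 0.791). At a finer clustering (resolution 2.0, 21 WT and 97 HKO macrophage-like barcodes) Cd59a stood at 31.8 and 11.9 CPM, and Fcna at 342 and 575 CPM. C6 was at a ratio of 1.35 (1.17 to 1.57) and Vsig4 at 0.842 (0.778 to 0.913). The C1q chains were within 0.931 to 0.968, and C5ar1, Itgam and Cfp within 0.988 to 1.02. In the mixed endothelial, macrophage and stellate class Fcna was at 225 CPM in WT and 591 CPM in HKO (2.62, 2.10 to 3.31), Cd59a at a ratio of 0.699 (0.515 to 0.957) and C1qa at 1.33 (1.18 to 1.52).

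In endothelial-like barcodes all 3 members were higher in HKO and none was called, against 17.5% of 9565 genes called higher and 17.2% lower, with a median of 0.28 against 0.05. Masp1 was at 1.49 (1.10 to 2.03), just below the limit, and at 1.58 without the barcode with the most of its UMIs in each library. It was at 1.62 after free RNA was subtracted from its own UMIs but not from the class totals. Alb, a measure of the free RNA in these totals, stood at 12775 CPM in WT and 6877 in HKO. Cd59a was at 1.21 and Cd55 at 1.11, both with intervals that included 1. In the smaller classes most intervals were wide, and ratios are given without calls. Cd55 in B and plasma-like barcodes, at 266 and 399 CPM, had an interval of the ratio of 1.09 to 2.10. Alb stood at 18999 CPM in WT and 12426 in HKO in this class, and at 16482 and 8655 CPM in T and NK-like barcodes. The Cd55 ratios of both classes were not corrected for this free RNA. In monocyte and dendritic-like barcodes C5ar1 was at 0.475 (0.261 to 0.846) from 33 UMIs in WT and 21 in HKO, and C1qb at 0.691 (0.520 to 0.916). The other members of that class had ratios of 1.51 (C1qc), 1.64 (Cfp), 1.23 (C3ar1), 1.16 (C1qa) and 1.05 (Itgam). Without the barcode with the most UMIs of each gene in each library, Cfp turned to 0.898 (0.385 to 2.12) and C1qa to 0.815 (0.499 to 1.33), C1qc was at 1.12 (0.614 to 2.09), and C1qb and C5ar1 stayed below 1 at 0.446 and 0.457. In stellate-like barcodes C1qa was at 0.258 and C1qc at 0.415, and without these barcodes at 0.642 (0.228 to 1.87) and 1.54 (0.385 to 8.85), from at most 10 UMIs a library. Masp1 was at 1.23 there, and Vsig4 at 0.908 and without these barcodes at 1.71 (0.441 to 9.68). Cd55 in T and NK-like barcodes was at 1.56 (0.791 to 3.24). Clu in cholangiocyte-like barcodes was at 1.09 (1.02 to 1.16), and in B and plasma-like barcodes Cr2 was at 1.10 (0.643 to 1.96).

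A second list held 24 further complement genes, of which 22 were in the tables. In hepatocyte-like barcodes 9 were compared, 8 of them lower in HKO (median log2 ratio -0.30). Cfhr2 was the 1 called lower, against 4.42% of all genes, at 531 CPM in WT and 339.6 CPM in HKO (0.640). Cfhr2 has near-identical relatives, between which the counting step could have split reads. Cd59b was highest with a log2 ratio of 0.44. Outside hepatocytes 9 of the 22 were above free RNA in both libraries in at least 1 class of a single type, where the share of all genes that passed ran from 1.45% in erythroid-like to 81.0% in macrophage-like barcodes. Among these, Itgb2, the beta chain that pairs with Itgam, was at 191 and 173 CPM in macrophage-like barcodes. Colec11, a collectin that starts the lectin pathway, was at 322 and 223 CPM in stellate-like barcodes, where Colec10, its partner, was at 166 and 100.1 CPM. Both were higher in the mixed endothelial, macrophage and stellate class, Colec11 at 904 CPM in WT and 878 in HKO and Colec10 at 599.8 and 553 CPM. C5ar2, the second receptor of C5a, was at 103 and 148 CPM in endothelial-like barcodes, where Cd93 was at 191 and 246 CPM.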

How the data were processed

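Single-cell suspensions of the livers were sequenced with 10x Genomics 3′ v2 chemistry, 1 library per genotype. The deposited values are raw UMI counts per gene and barcode that the authors made with Cell Ranger, with version 7.1.0 in the header of the matrix. The submitters' processing notes name the mm10 build, R 3.0 and Seurat 3, and whether introns were counted was not given in the sources used here. Of 30078 WT and 20000 HKO barcodes, 29620 and 18247 with at least 500 UMIs, 300 genes and at most 50% mitochondrial UMIs were kept, and doublets were kept and set apart only by mixed markers, since Scrublet marked 15712 and 2261 barcodes at its own threshold. Barcodes were clustered with scanpy 1.11.5 (Leiden, resolution 1.0, 2000 variable genes without complement genes, 30 components), and a class was named from at least 3 markers of its list. Free RNA droplets lay within 25% of the commonest depth of their library.

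The counts were summed per class and library and scaled to 1000000 per class and library (CPM). Intervals are exact Poisson (levels), exact conditional (ratios) or Clopper-Pearson (shares) at 95% with scipy 1.17.1, and cover counting error only. A ratio was called at 1.5-fold among genes with a mean of at least 10 CPM in hepatocyte-like barcodes, and with at least 10 UMIs over both libraries in macrophage-like and endothelial-like barcodes. In smaller classes with at least 10 barcodes per library ratios were given without calls. With 1 library per genotype no p-value was computed. The intervals and the call rule were run on simulated counts with counting error only. Such counts cannot show how they behave under the spread between mice or unlike shares of free RNA and clusters. Values were given in full for members that reached the level limit in hepatocyte-like barcodes or stood above free RNA in another class, and the other complement genes by counts with some examples. The members and lists were chosen with earlier results of these data known. The alternatives tried were other depth, mitochondrial and level limits, doublet removal, equal weights per barcode, thinning, other scalings, leaving out the top barcode and other clusterings. After the data were seen, free RNA droplets, all barcodes, single clusters, scaling by Alb and, in smaller classes, leaving out the top barcode were added. Results of some genes of the second list are not reported here.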

Additional observations from a re-analysis of the deposited data

Results flagged for a closer look

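The ratio of Cd59a, the membrane inhibitor of pore assembly, lay below 1 in macrophage-like barcodes (0.546, 0.379 to 0.791) and at 1.00 (0.947 to 1.06) in hepatocyte-like barcodes. It stands here because the intervals of the 2 classes did not overlap. This was not particular to Cd59a. C6 was at 1.35 (1.17 to 1.57) in macrophage-like and 0.784 (0.737 to 0.833) in hepatocyte-like barcodes. Clu was at 1.09 (1.02 to 1.16) in cholangiocyte-like and 0.803 (0.790 to 0.816) in hepatocyte-like barcodes. The share of all genes with such intervals was not counted. All these intervals cover counting error only, and with 1 library per genotype the difference between the classes was not tested. The share of macrophage-like barcodes with a Cd59a UMI was 51.2% in WT and 20.1% in HKO, at median depths of 14495 and 8121 UMIs. Without the barcode with the most Cd59a UMIs in each library the ratio was 0.587. It was 0.572 after free RNA was subtracted from the Cd59a UMIs but not from the class totals. At a clustering resolution of 2.0 the class had 21 WT and 97 HKO barcodes and Cd59a stood at 31.8 and 11.9 CPM in place of 85.4 and 46.6. Endothelial-like barcodes held it at 241 and 292 CPM, and their part in the macrophage-like level was not tested.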

How the results depend on the processing

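The count of 5 members at least 1.5-fold lower in HKO in hepatocyte-like barcodes became 0 with no depth minimum, 0 in free RNA droplets and 0 when scaled by Alb. It was also 0 within cluster 10 and 0 within cluster 12, the only clusters with at least 100 barcodes of each library. It was 3 without the clusters of at least 50 hepatocyte-like barcodes held over 90% by 1 library, which were all held by WT, and 10 at a mean of at least 1 CPM, where 6.24% of 11470 genes were that much lower and the 5 added members (C1qa, C1qb, C1qc, Vsig4 and Cfd) had under 5 CPM. Scaled by Alb, which moves all genes alike, the members' median log2 ratio went from -0.28 to 0.12 and that of all genes from -0.00 to 0.39, so the members stayed below it. In free RNA droplets C4b turned to 1.27, Cfb to 1.02 and Vtn to 1.00. In endothelial-like barcodes 1 member, Masp1, was at least 1.5-fold higher without its top barcode and 1 after free RNA was subtracted, against 0 otherwise. The subtraction left the class totals unchanged. The causes were not tested. The free RNA, cluster and Alb alternatives were chosen after seeing the data. Over the main counts and medians, 61 values under alternatives stayed within the limits set for no change, 9 moved and 1 reversed. Among single genes these numbers were 244, 207 and 3. No paired analysis was possible because each genotype had 1 library. Small classes limit the comparison: the macrophage-like class had 41 barcodes in WT, and the spread between mice could not be estimated.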
